A study of Mus musculus with 18 samples.

Results

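Gap junctions and the uptake and recycling of glutamate are tasks of the supporting cells that surround the hair cells of the cochlea, and 7 genes of these tasks are described here in 18 libraries of mouse cochlear RNA. They are 3 connexin genes (Gjb2, Gjb6 and Gja1), the glutamate transporter gene Slc1a3, the glutamine synthetase gene Glul, and 2 genes best known from glia, Fabp7 and Aqp4. The genes were listed by name for their known roles and make up 7 of 47729 gene identifiers in the files. All 7 passed the filter on low values (at least 1 TPM in at least 2 libraries), as did 20463 genes in all.

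Connexins assemble into channels that join neighboring cells. In the cochlea, connexin 26 (Gjb2) and connexin 30 (Gjb6) form the channels of the supporting cells and of the fibrocytes, and their loss causes deafness in mice and humans. Supporting cells also take up the glutamate that inner hair cells release, through the transporter GLAST (Slc1a3), and glutamine synthetase (Glul) turns glutamate into glutamine, as in the astrocytes of the brain. Fabp7 encodes a fatty acid binding protein of radial glia and other glia, and Aqp4 encodes a water channel of astrocytes and of some cochlear supporting cells.

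The 18 libraries fell into 9 groups of 2. In the titles, 3 groups are cells of the cochlear sensory epithelium sorted at postnatal day 2 and named for Atoh1, Lgr5 and Sox2, and the series design sets native hair cells against native supporting cells. They are called the Atoh1, Lgr5 and Sox2 sorts here, with the Atoh1 sort read as hair cells and the others as supporting cells. The other 6 groups are organoid cultures of primary cochlear cells, titled LCP, taken here to stand for cochlear progenitors positive for Lgr5, since no label spells it out. Cultures labelled as not sorted cover differentiation days D0, D2, D4 and D10, and cultures labelled as sorted cover D0 and D10. No label used here gives the reporter behind each sort, the cells that the culture sort collected, or the mouse strain. The labels state that each sample came from both ears of 1 pup, without saying how this applies to the cultures, so p-values measure the spread between these libraries. A tamoxifen protocol with a Sox2-CreER driver and a beta-catenin allele is given for all samples and matches no title, so it defines no group here. The labelled sequencing date of every first library (replicate 1) differs from that of the second libraries, and among the first libraries those of LCP D0, D2 and D4 have a date of their own.

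Levels are in TPM, a transcript abundance scaled for gene length and to 1 fixed total per library. It keeps no depth, so counting error is unknown. The hair cell gene Myo7a was at 80.1 and 151 TPM in the Atoh1 sort, and also at 58.3 to 77.9 TPM in the Lgr5 and Sox2 sorts, so the supporting cell sorts were not free of hair cell transcripts. Prox1 and Fgfr3, which mark pillar and Deiters cells, were at 4.61 to 16.6 TPM and 58.6 to 216 TPM in the native sorts, and at 0 to 0.708 TPM and 0.237 to 6.56 TPM in the 12 cultures. The Atoh1 sort had Prox1 at 5.98 and 4.61 TPM and Fgfr3 at 68.1 and 58.6 TPM. It was therefore not free of transcripts of supporting cell markers. Of all 16 supporting cell markers, 0 were higher and 4 lower (Prox1, Fgfr3, Hes5 and Tectb) in sorted LCP D0 than in the Lgr5 sort, and the other 12 did not pass. Among all tested genes 3.85% passed as higher and 7.11% as lower there. Without S100a1, the supporting cell markers summed to 1231 and 393 TPM in sorted LCP D0, against 7443 and 2249 TPM in the Lgr5 sort. Tectb alone was at 4399 and 1562 TPM in the Lgr5 sort. Markers that did not pass went either way. Sox2 was at 30.1 and 16.5 TPM in sorted LCP D0, against 140 and 45.7 TPM in the Lgr5 sort. Lfng was at 39.9 and 6.34 TPM, against 55.6 and 51.3 TPM. Sox9 was instead at 113 and 56.6 TPM in sorted LCP D0, against 97.0 and 44.0 TPM in the Lgr5 sort. Sox10 was at 80.8 and 82.1 TPM in sorted LCP D0, against 45.6 and 33.7 TPM in the Lgr5 sort. Genes reaching 1 TPM numbered 14381 to 16713 per library. Levels of a gene in bulk RNA cannot tell fewer cells of a type from less RNA per cell.

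**Figure D1:**
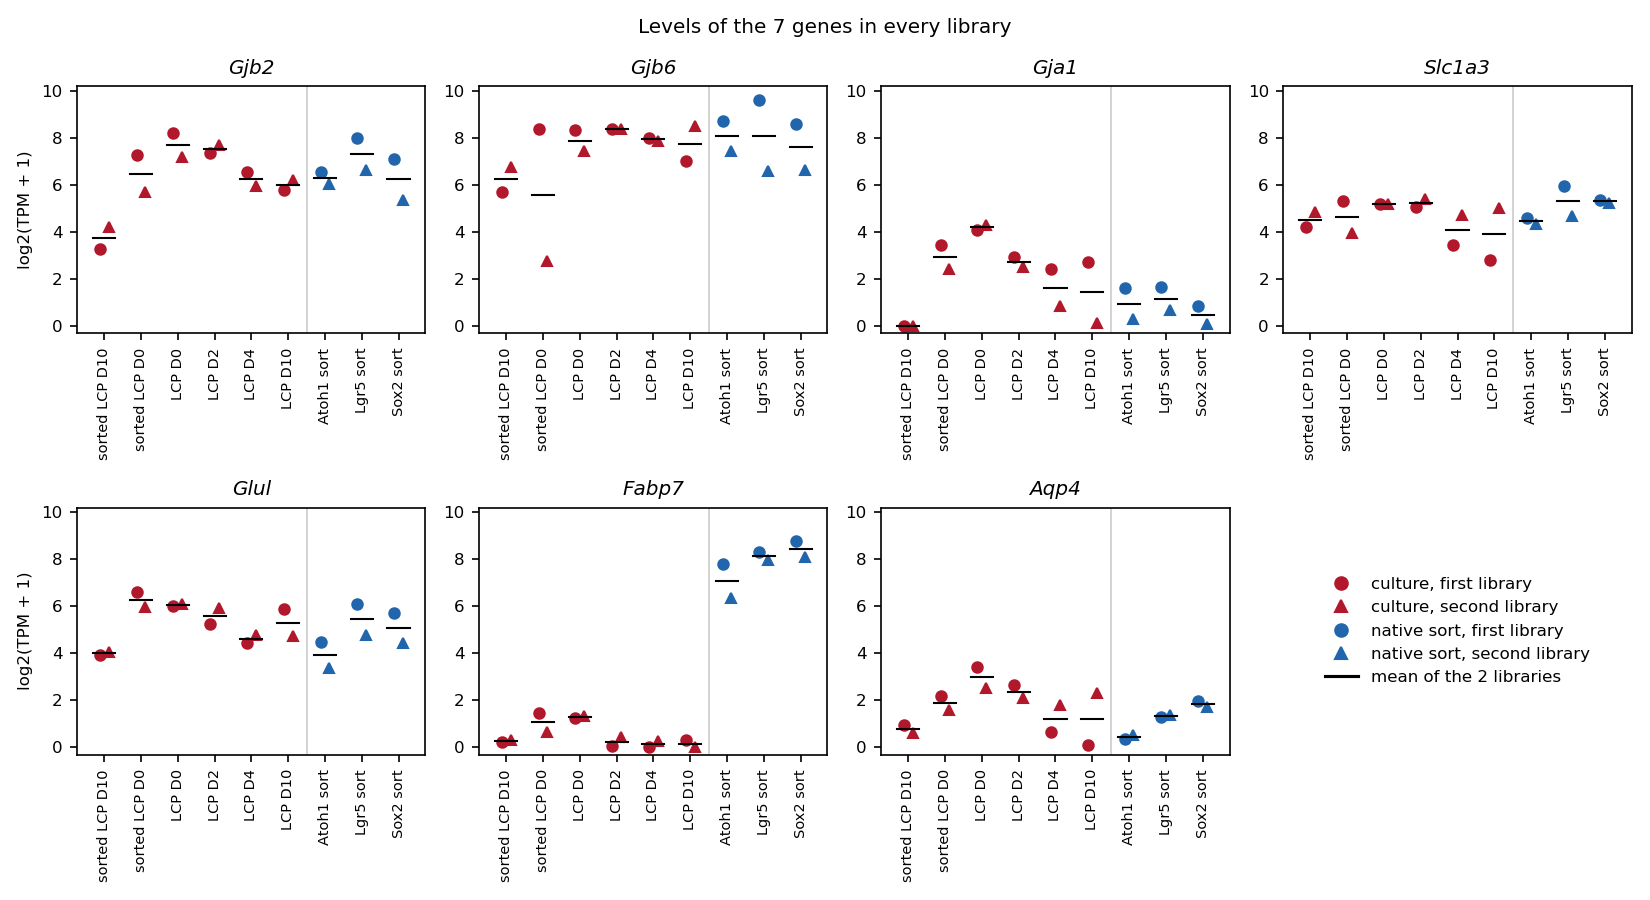
Level of each of the 7 genes in every library, as log2(TPM + 1) on the vertical axis, by group on the horizontal axis (circle, first library; triangle, second library; bar, mean of the 2; red, cultures; blue, native sorts). Fabp7 is high in the 6 native libraries (80.7 to 432 TPM) and low in the 12 cultures (0 to 1.74 TPM), and Gja1 is at 0.00462 and 0 TPM in sorted LCP D10.

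Gjb2 and Gjb6 lie side by side on the minus strand of chromosome 14. By GENCODE M21 on mm10, Gjb2 (ENSMUSG00000046352) spans bases 57098600 to 57104702 and Gjb6 (ENSMUSG00000040055) spans bases 57123303 to 57133611, with 18600 bases between them. The 250 bases before each gene's RefSeq start (build GRCm38.p6) are shown because these neighbors differed in level, and with them those of Fabp7, whose levels separated cultures from native cells. Capitals mark matches to 4 motifs searched on both strands: TATAAA, the GC box GGGCGG, the RBPJ core TGGGAA and the SOX core ACAAAG.
Gjb2 (chr14:57104703-57104952, minus strand): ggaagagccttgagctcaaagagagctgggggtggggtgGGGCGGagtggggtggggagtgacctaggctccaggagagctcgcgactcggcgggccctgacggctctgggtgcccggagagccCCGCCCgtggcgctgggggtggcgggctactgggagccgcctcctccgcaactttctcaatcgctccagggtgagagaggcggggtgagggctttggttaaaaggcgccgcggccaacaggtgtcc
Gjb6 (chr14:57133612-57133861, minus strand): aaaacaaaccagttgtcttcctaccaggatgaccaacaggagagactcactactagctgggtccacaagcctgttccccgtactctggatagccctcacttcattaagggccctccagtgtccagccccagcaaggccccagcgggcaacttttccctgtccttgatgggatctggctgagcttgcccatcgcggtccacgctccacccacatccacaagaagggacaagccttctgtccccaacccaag
Fabp7 (chr10:57784673-57784922, plus strand): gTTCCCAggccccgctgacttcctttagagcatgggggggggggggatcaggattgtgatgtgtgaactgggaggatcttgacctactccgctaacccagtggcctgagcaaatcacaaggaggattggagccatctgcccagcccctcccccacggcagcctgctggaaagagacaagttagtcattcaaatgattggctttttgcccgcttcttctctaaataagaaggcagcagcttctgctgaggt
The Gjb2 window held 18 CpG dinucleotides and 69.2% G and C, against medians of 6 and 52.4% over 32851 windows of this length. It held 2 GC boxes, at -211 and, on the reverse strand, at -126, a motif present in 32.7% of all windows. The Gjb6 window held 5 CpG dinucleotides and 56.8% G and C, and none of the 4 motifs matched. The Fabp7 window held 4 CpG dinucleotides and 1 RBPJ core, on the reverse strand at -249, a motif found in 21.6% of windows. TATAAA was found in 12.4% and ACAAAG in 16.5% of windows. No match overlapped another. In 6 of the 7 genes a window was in the RefSeq table.

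All 3 connexins had their lowest group mean in the sorted D10 cultures, and Gjb2 and Gja1 passed the test against sorted D0 cultures while Gjb6 did not. Gjb2 was at 8.65 and 17.3 TPM in sorted LCP D10, against 151 and 50.2 TPM in sorted LCP D0. Both sorted D10 libraries lay below each of the other 16 libraries, the lowest of which had 40.2 TPM. The log2 difference was -2.73 (SE 0.68, adjusted p = 0.0122, limma with Benjamini-Hochberg adjustment over all tested genes), with -3.98 between first libraries and -1.49 between second libraries. Differences here and below are on the log2(TPM + 1) scale, which understates those of low genes. Of all tested genes, 24% passed in this comparison (13.3% as higher and 10.7% as lower), and of the 7 genes 3 were lower (Gjb2, Gja1 and Glul) and 0 were higher.

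The unsorted cultures had Gjb2 at 294 and 144 TPM at D0, 160.2 and 205 TPM at D2, 92.7 and 61.2 TPM at D4, and 53.7 and 73.5 TPM at D10. The D4 and D10 libraries all lay below the D0 libraries, while those of D2 overlapped them. The log2 differences from D0 were -1.44 at D4 (SE 0.68, adjusted p = 0.356) and -1.70 at D10 (adjusted p = 0.174), and neither passed limma's test. Sorted LCP D10 also lay below unsorted LCP D10, by a log2 difference of -2.26 (SE 0.68, limma adjusted p = 0.0684), which did not pass, and with the replicate number as a block the adjusted p was 0.0362. Set against the native Atoh1 sort, at 92.6 and 65.0 TPM, sorted LCP D10 was lower by -2.57 (SE 0.68, limma adjusted p = 0.0298). In that comparison 11.8% of all tested genes passed (4.51% as higher and 7.34% as lower), and of the 7 genes 2 were lower (Gjb2 and Fabp7). The Gjb2 call against the Atoh1 sort was lost when any 1 of the 4 libraries was left out and when only those 4 were fitted. It held in 7 of 12 alternative settings, whose limma adjusted p-values ran from 0.0165 to 0.17.

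Among native sorts Gjb2 was at 92.6 and 65.0 TPM in the Atoh1 sort, 254 and 97.4 TPM in the Lgr5 sort, and 137 and 40.2 TPM in the Sox2 sort. The ranges of the 3 sorts overlapped. Of the 7 genes, 0 passed limma's test between the Atoh1 sort and the mean of the other sorts, where 0.821% of all tested genes passed, and 2 of the 7 (Glul and Fabp7) had an unadjusted p under 0.05. Between the Lgr5 and Sox2 sorts 0 of the 7 passed limma's test, where 0.557% of all tested genes passed, and 0 had an unadjusted p under 0.05. The share of all tested genes with an unadjusted p under 0.05 was not counted, here or in the comparisons below.

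Gjb6 was the most abundant of the 7 genes, averaging 254 TPM over all libraries. In unsorted cultures it was at 323 and 170.4 TPM at D0, 335 and 332 TPM at D2, 256 and 231 TPM at D4, and 129 and 357 TPM at D10. Both D2 libraries lay above the D0 and the D4 libraries, and the other pairs of days overlapped. Gjb6 averaged 243 ± 161 TPM in LCP D10 and 247 ± 108 TPM in LCP D0, where Gjb2 averaged 63.6 ± 14.0 TPM in LCP D10 and 219 ± 106 TPM in LCP D0 (SD, n = 2 each).

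The sorted cultures had Gjb6 at 51.1 and 107 TPM at D10, against 334 and 5.83 TPM at D0. The value of 5.83 TPM, in the second sorted D0 library, is the lowest of the 18 and stands apart from the next, 51.1 TPM. The log2 difference between sorted D10 and D0 was 0.65 (SE 1.46, limma adjusted p = 0.801), and it was -2.16 (adjusted p = 0.23) without that library. Against the Lgr5 sort, which had 773 and 95.8 TPM, sorted LCP D0 was at -2.52 (adjusted p = 0.35), and without its second library at 0.29 (adjusted p = 0.972). Without its first library the difference was -5.32 (limma adjusted p = 0.0152). The direction for Gjb6 in sorted D0 cultures therefore rests on 1 library. Sorted LCP D10 lay below the Atoh1 sort (415 and 173 TPM) with no overlap, by -1.84 (limma adjusted p = 0.466), which did not pass.

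The ratio of Gjb6 to Gjb2, both in TPM and so per length, was described per library and was not tested. It was 5.90 and 6.21 in sorted LCP D10, against 2.21 and 0.116 in sorted LCP D0. In unsorted cultures it was 1.10 and 1.18 at D0, 2.09 and 1.62 at D2, 2.76 and 3.77 at D4, and 2.39 and 4.86 at D10. All unsorted libraries of D2, D4 and D10 had a higher ratio than both D0 libraries. Native sorts had ratios of 0.983 to 4.48.

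Over the 20 connexin genes in the files, of which 10 passed the filter, Gjb6 and Gjb2 made up most of the connexin TPM. Gjb6 took 42.9 to 81.1% of it in 17 libraries and 5.48% in the second sorted LCP D0 library. Gjb2 took 11.9 and 12.8% in sorted LCP D10, the lowest shares, and 16.7 to 47.2% in the other libraries. Gjc1, which encodes connexin 45, was the largest of the other connexins in 15 libraries and took 36.0% in the second sorted LCP D0 library. The summed connexin level was 72.6 and 135 TPM in sorted LCP D10, against 549.9 and 106 TPM in sorted LCP D0.

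**Figure D2:**
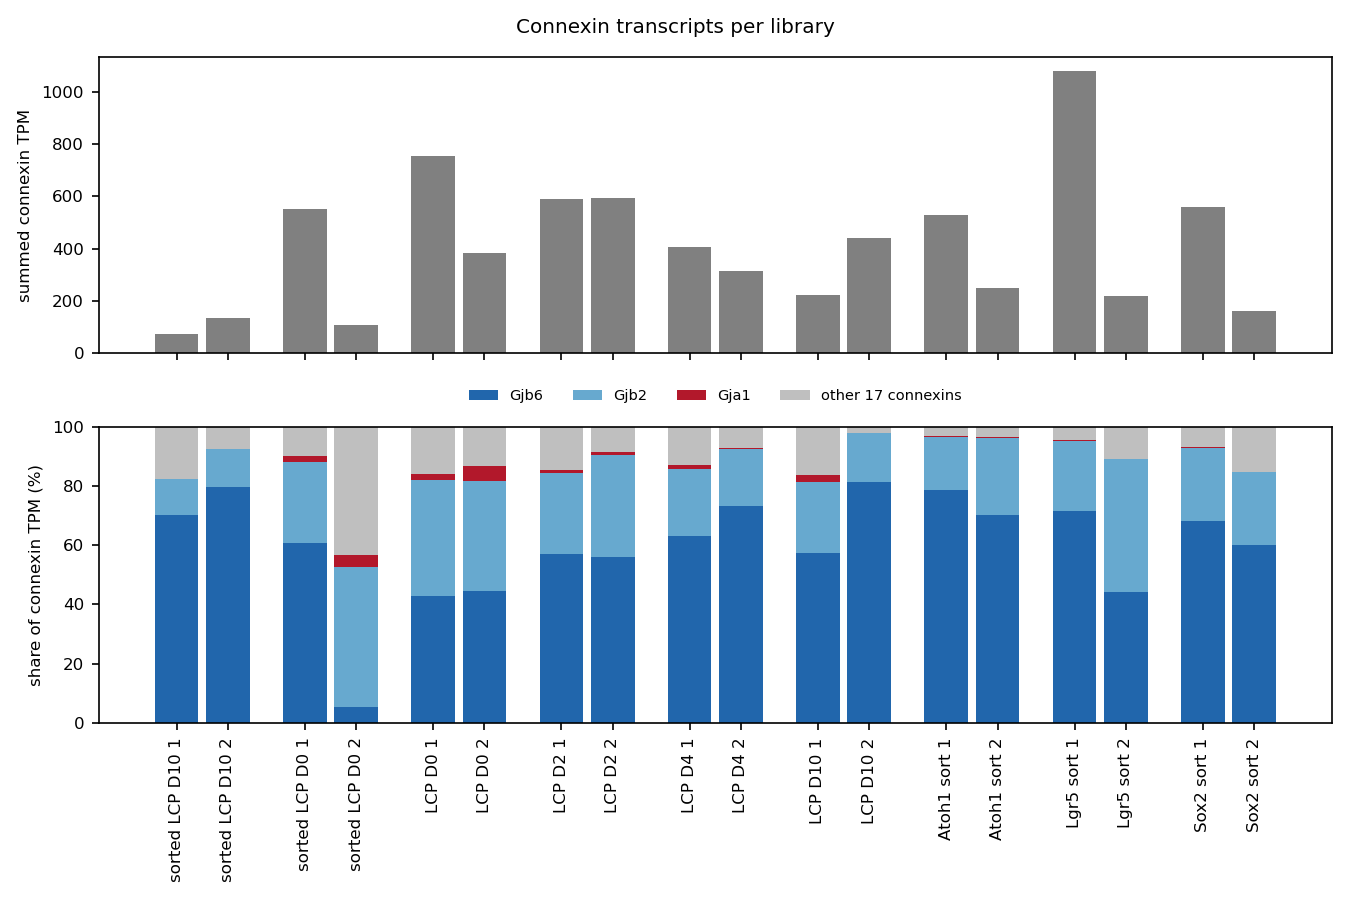
Summed TPM of the 20 connexin genes per library (upper bars) and the share of Gjb6, Gjb2, Gja1 and the other 17 connexins in that sum, in percent (lower bars), by group and replicate number on the horizontal axis. Gjb6 takes 42.9 to 81.1% in every library except the second of sorted LCP D0, at 5.48%, and Gjb2 takes its lowest shares, 11.9 and 12.8%, in sorted LCP D10.

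Gja1 encodes connexin 43, a connexin of astrocytes and of many other tissues, and lies on the plus strand of chromosome 10 (56377330 to 56402513). It was highest in the D0 cultures and low in native cells. In sorted cultures it was at 0.00462 and 0 TPM at D10, against 9.97 and 4.30 TPM at D0. The log2 difference was -2.93 (SE 0.80, limma adjusted p = 0.0199), with -3.45 between first libraries and -2.41 between second libraries. Since 1 library of sorted LCP D10 is listed at 0, this difference depends on the pseudocount, and with a pseudocount of 0.1 it was -6.02.

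In unsorted cultures Gja1 was at 15.8 and 18.7 TPM at D0, 6.61 and 4.65 TPM at D2, 4.35 and 0.777 TPM at D4, and 5.52 and 0.104 TPM at D10. Every library after D0 was below both D0 libraries. The log2 differences from D0 were -1.47 at D2 (adjusted p = 1), -2.56 at D4 (adjusted p = 0.12) and -2.76 at D10 (adjusted p = 0.0597), each with an SE of 0.80, and none passed limma's test. With the replicate number as a block, limma's adjusted p was 0.0272 at D4 and 0.0116 at D10, where the first libraries of D10 and D0 have different sequencing dates. With sequencing date as a term it was 0.0305 at D4 and 0.0207 at D10. Against D0, 0 of the 7 genes passed limma's test at D2, 0 at D4 and 0 at D10, where 0.0489, 3.39 and 7.39% of all tested genes passed. An unadjusted p under 0.05 was reached by 1 of the 7 at D2 (Fabp7), 4 at D4 (Gja1, Glul, Fabp7 and Aqp4) and 4 at D10 (Gjb2, Gja1, Fabp7 and Aqp4). The shares just given are for adjusted p and cannot be set against these unadjusted counts.

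Native levels of Gja1 were 2.08 and 0.216 TPM in the Atoh1 sort, 2.15 and 0.598 TPM in the Lgr5 sort, and 0.778 and 0.0580 TPM in the Sox2 sort. Sorted LCP D0 was above the Lgr5 sort in both libraries, with a log2 difference of 1.77 (SE 0.80, limma adjusted p = 0.211) that did not pass. Mesenchyme, which expresses Gja1 in many tissues, was read beside it. The summed level of 8 mesenchyme and fibrocyte markers was 62.4 and 47.5 TPM in sorted LCP D10, against 1619 and 660.2 TPM in sorted LCP D0. In unsorted cultures that sum was 1015 and 1535 TPM at D0, 780.0 and 1270 TPM at D2, 544 and 667 TPM at D4, and 509.9 and 447 TPM at D10. Dcn and Lum made up most of these sums, with Dcn at 48.9 and 32.3 TPM in sorted LCP D10, against 895 and 421 TPM in sorted LCP D0, and Lum at 12.6 and 14.7 TPM, against 718 and 238 TPM. Col1a1, Col1a2, Pou3f4 and Tbx18 were each below 1 TPM in both sorted LCP D0 libraries, and Col3a1 was at 0 there. The native sorts, where Gja1 was low, had sums of 265 and 148 TPM (Atoh1), 415 and 703 TPM (Lgr5) and 481 and 353 TPM (Sox2). Against the same-numbered Lgr5 sort library, sorted LCP D0 had a higher sum in the first library and a lower sum in the second. In that comparison 1 of 7 tested markers was higher (Dcn) and 2 were lower (Col1a2 and Col3a1). Among all tested genes 3.85% passed as higher and 7.11% as lower there. In the D10 to D0 comparison of sorted cultures 3 of 7 tested markers of the list were lower and 0 higher, beside 10.7 and 13.3% of all tested genes. The part of these markers in the Gja1 result was not tested.

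**Figure D3:**
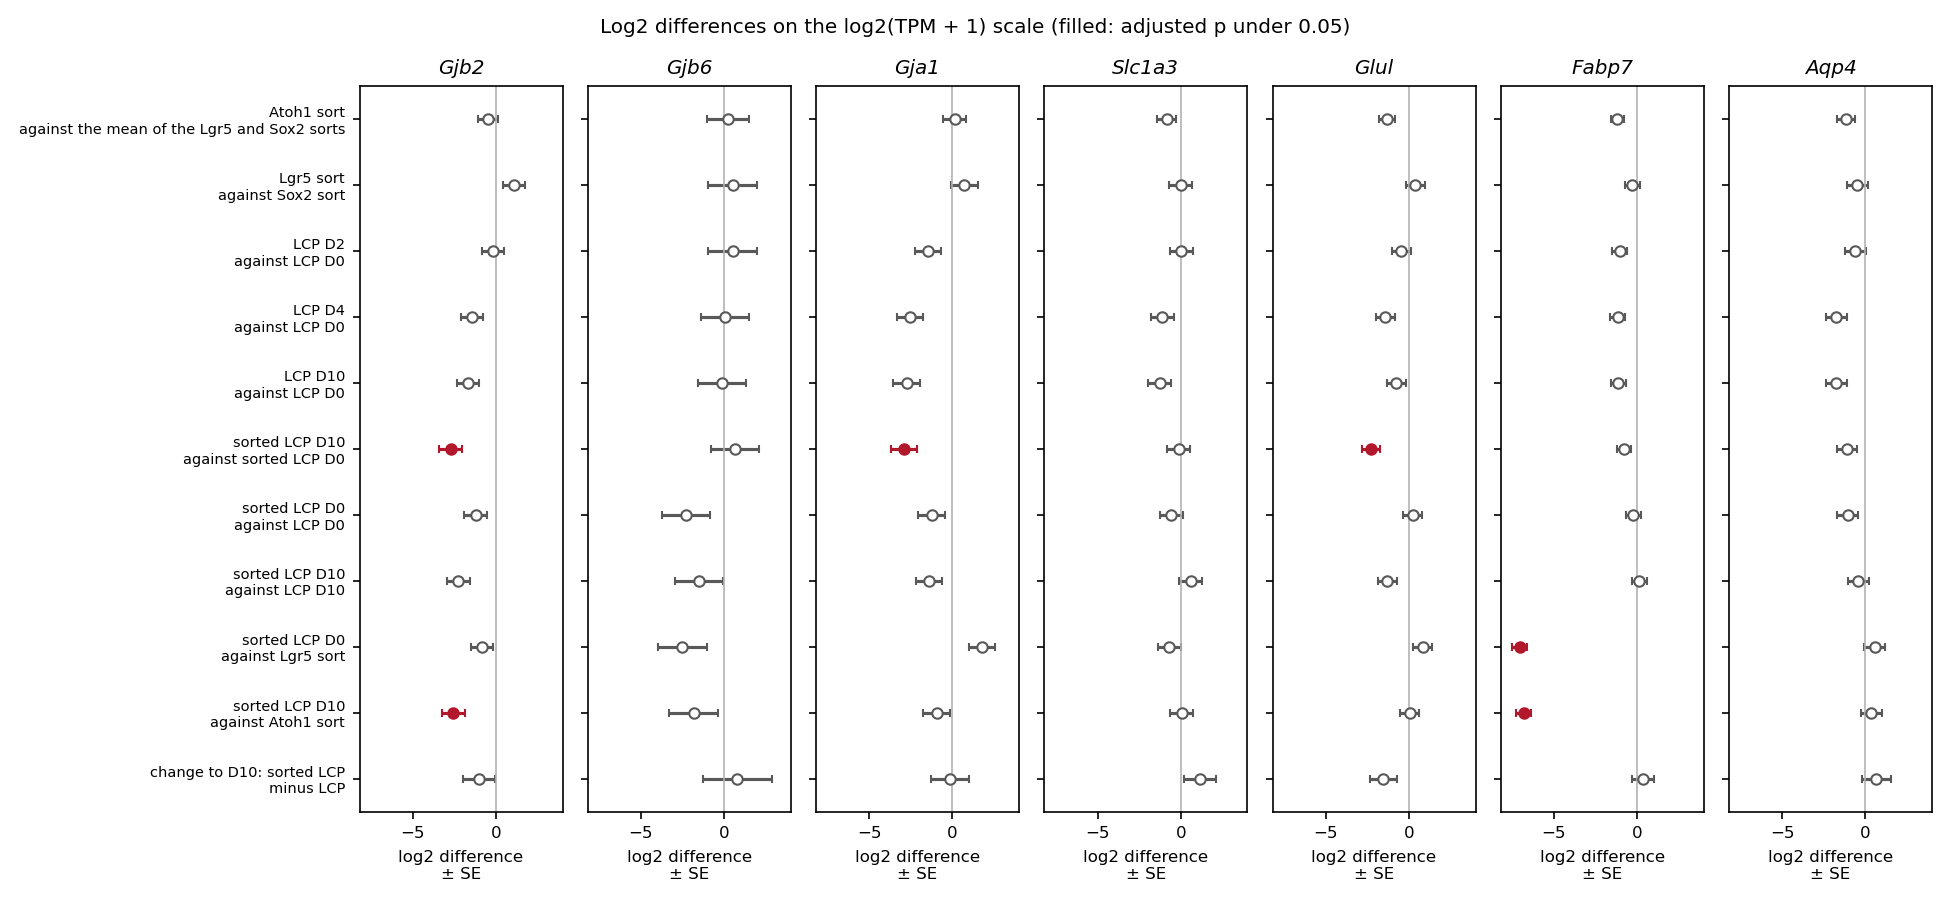
Log2 difference ± SE on the log2(TPM + 1) scale (horizontal axis) of each of the 7 genes in the 11 comparisons (rows), first named group minus second, with filled points for an adjusted p under 0.05. Filled points are Gjb2, Gja1 and Glul in sorted LCP D10 against D0, Fabp7 in sorted LCP D0 against the Lgr5 sort, and Gjb2 and Fabp7 in sorted LCP D10 against the Atoh1 sort.

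Slc1a3, on the minus strand of chromosome 15 (8634124 to 8710764), had the smallest ratio of highest to lowest group mean among the 7 genes. It was at 17.3 and 27.6 TPM in sorted LCP D10, against 38.2 and 14.5 TPM in sorted LCP D0. Unsorted cultures had 35.3 and 35.2 TPM at D0, 31.9 and 40.5 TPM at D2, 9.71 and 25.6 TPM at D4, and 6.04 and 31.0 TPM at D10. Neighboring groups in the order of mean levels overlapped throughout, from 42.6 TPM in the Lgr5 sort to 17.7 TPM in LCP D4. The D10 to D0 difference in unsorted cultures was -1.27 (SE 0.69, limma adjusted p = 0.338), made up of -2.37 between first libraries and -0.18 between second libraries.

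In native cells Slc1a3 was at 23.0 and 18.9 TPM in the Atoh1 sort, against 60.8 and 24.3 TPM in the Lgr5 sort and 40.5 and 36.6 TPM in the Sox2 sort. Both Atoh1 sort libraries were lower than all 4 supporting cell sort libraries. The difference of -0.85 (SE 0.60, limma adjusted p = 0.639) did not pass.

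Glul, on the plus strand of chromosome 1 (153899944 to 153909723), passed as lower at D10 than at D0 in sorted cultures. It did not pass against D0 in unsorted cultures in the reported fit. In sorted cultures it was at 14.1 and 15.9 TPM at D10, against 95.9 and 61.6 TPM at D0, and the log2 difference was -2.28 (SE 0.57, limma adjusted p = 0.0127). The drop was -2.68 between first libraries and -1.89 between second libraries. In unsorted cultures Glul was at 62.9 and 68.1 TPM at D0, 37.1 and 60.7 TPM at D2, 20.9 and 26.8 TPM at D4, and 57.6 and 25.6 TPM at D10. All libraries after D0 were below both D0 libraries. The log2 difference from D0 was -1.43 at D4 (SE 0.57, limma adjusted p = 0.252) and -0.75 at D10 (SE 0.57, adjusted p = 0.525), and neither passed. At D10 it was -0.12 between first libraries and -1.38 between second libraries. With sequencing date as a term limma's adjusted p for Glul was 0.0392 at D4 and 0.0532 at D10.

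Across the native sorts Glul was at 21.6 and 9.52 TPM in the Atoh1 sort, against 68.4 and 26.4 TPM in the Lgr5 sort and 51.0 and 20.5 TPM in the Sox2 sort. The difference between the Atoh1 sort and the mean of the others was -1.31 (SE 0.49, limma adjusted p = 0.307) and did not pass, although each same-numbered pair gave it, at -1.41 and -1.21. Sorted LCP D10 averaged 15.0 ± 1.24 TPM and the Atoh1 sort 15.6 ± 8.57 TPM (SD, n = 2 each).

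The calls for Gjb2, Gja1 and Glul in sorted cultures depended on single libraries. Without the first sorted LCP D0 library or the first sorted LCP D10 library, 0 of the 7 genes passed, without the second sorted LCP D10 library 1 did (Gjb2), and without the second sorted LCP D0 library 3 did. When the 4 sorted libraries were fitted on their own, only Glul passed. The D10 to D0 difference in sorted cultures was set against that in unsorted cultures by an interaction term. Of the 7 genes 0 passed limma's test of it, where 0.205% of all tested genes passed, and 0 had an unadjusted p under 0.05. The smallest limma adjusted p was 0.516 (Glul, -1.53, SE 0.80). Between sorted and unsorted cultures, 0 of the 7 passed limma's test at D0 and 0 at D10, where 0.0782 and 6.22% of all tested genes passed. An unadjusted p under 0.05 was reached by 0 of the 7 at D0 and 2 at D10 (Gjb2 and Glul), and the share of all tested genes at that cutoff was not counted.

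Other values were set beside the drop of Gjb2, Gja1 and Glul in sorted cultures. The summed level of 13 hair cell markers was 1447 and 1111 TPM in sorted LCP D10, against 20.8 and 6.09 TPM in sorted LCP D0. The summed level of 10 cell cycle genes was 30.8 and 28.0 TPM, against 467 and 668 TPM. Over 15 supporting cell markers (without S100a1, which hair cells also express) the sum was 402 and 384 TPM in sorted LCP D10, against 1231 and 393 TPM in sorted LCP D0. This sum was lower at D10 in both pairs, mainly between the first libraries. The median log2 difference of all 16 supporting cell markers, with S100a1, was -1.60, against 0.02 over all tested genes. S100a1 itself was at 6313 and 7335 TPM, against 674 and 487 TPM. Of 16 supporting cell markers with S100a1, 1 (S100a1) was higher and 5 were lower (Sox9, Sox10, Jag1, Hey1 and Hey2), beside 13.3 and 10.7% of all tested genes. The part of these shifts in the results for the 3 genes was not tested.

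Fabp7, on the plus strand of chromosome 10 (57784881 to 57788450), separated native cells from cultures. It was at 0.168 and 0.245 TPM in sorted LCP D10, against 224 and 80.7 TPM in the Atoh1 sort. The sorted D0 cultures had it at 1.74 and 0.601 TPM, against 315 and 246 TPM in the Lgr5 sort. The Sox2 sort had 432 and 275 TPM. Of the 7 genes, Fabp7 is the only one whose 12 culture libraries (0 to 1.74 TPM) and 6 native libraries (80.7 to 432 TPM) did not overlap, and 9 of the 12 cultures were below 1 TPM. How many of all tested genes separate cultures from native libraries in this way was not counted.

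The log2 difference between sorted LCP D0 and the Lgr5 sort was -7.06 (SE 0.45, limma adjusted p = 8.89e-06), the 12th by size of 20463 genes. In this comparison 11% of all tested genes passed (3.85% as higher and 7.11% as lower), and of the 7 genes 1 was lower. Between sorted LCP D10 and the Atoh1 sort it was -6.81 (SE 0.45, limma adjusted p = 6.27e-06), the 16th by size. Within replicate numbers the difference from the Lgr5 sort was -6.85 and -7.27, and that from the Atoh1 sort was -7.59 and -6.03. When only the 4 libraries compared were fitted, limma's adjusted p was 0.0817 against the Lgr5 sort and 0.0429 against the Atoh1 sort. All native libraries are of sorted epithelium and all others are of cultures, so culture itself, time and the makeup of the cells cannot be told apart.

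Within cultures Fabp7 was already low at D0, at 1.41 and 1.51 TPM in unsorted libraries, 0.0495 and 0.346 TPM at D2, 0 and 0.198 TPM at D4, and 0.244 and 0 TPM at D10. All 6 later libraries were below both D0 libraries. The log2 differences from D0 were -1.05, -1.17 and -1.14 at D2, D4 and D10 (limma adjusted p = 1, 0.233 and 0.169) and did not pass. With a pseudocount of 0.1 the D10 difference was -3.07 (limma adjusted p = 0.0383), and with sequencing date as a term its adjusted p was 0.0365.

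In native cells Fabp7 was lower in the Atoh1 sort than in every library of the other sorts, with a log2 difference of -1.20 (SE 0.39, limma adjusted p = 0.223) that did not pass. Glia are known to express Fabp7, and their markers are given beside it. The sum of 11 Schwann cell and glia markers was 363 and 255 TPM in the Atoh1 sort, 604 and 396 TPM in the Lgr5 sort and 808 and 1252 TPM in the Sox2 sort, and 157 to 390 TPM in cultures. The part of glia in its level in the Sox2 sort was not tested.

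Aqp4, on the minus strand of chromosome 18 (15389496 to 15410982), was low throughout, at 0.0795 to 9.85 TPM. It was at 0.954 and 0.533 TPM in sorted LCP D10, against 3.60 and 2.05 TPM in sorted LCP D0. Unsorted cultures had 9.85 and 4.71 TPM at D0, 5.24 and 3.33 TPM at D2, 0.555 and 2.45 TPM at D4, and 0.0795 and 4.00 TPM at D10. All D4 and D10 libraries were below both D0 libraries, with log2 differences of -1.76 at D4 (limma adjusted p = 0.183) and -1.76 at D10 (adjusted p = 0.124), and neither passed. The D10 difference was made up of -3.33 between first libraries and -0.19 between second libraries. In the Atoh1 sort Aqp4 was at 0.290 and 0.443 TPM, below the Lgr5 sort (1.44 and 1.64 TPM) and the Sox2 sort (2.91 and 2.25 TPM). This difference was -1.14 (SE 0.54, limma adjusted p = 0.437) and did not pass. Groups in order of mean Aqp4 level overlapped their neighbors in 7 of 8 steps.

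Across the native sorts, then, the Atoh1 sort libraries lay below all others for Slc1a3, Fabp7 and Aqp4 and overlapped them for Gjb2, Gjb6, Gja1 and Glul. None of these differences passed limma's test. How many of all tested genes separate in this way was not counted, so it is not known whether the 7 genes stand out. Within each sort, 6 of the 7 genes (all but Aqp4) were higher in the first library than in the second in all 3 sorts, as were 18.7% of all tested genes. Supporting cell markers without S100a1 summed to 1188 and 629 TPM in the Atoh1 sort, 7443 and 2249 TPM in the Lgr5 sort and 2429 and 1031 TPM in the Sox2 sort, also higher in the first library. The hair cell sum was lower in the first library of each sort, at 1698 and 2570 TPM, 709 and 1282 TPM, and 1071 and 1279 TPM in the same order. The part of these shifts in the spread of the 7 genes was not tested.

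Levels of 6 of the 7 genes were set against each other over the 18 libraries. Fabp7 is left out because its libraries fall into 2 clusters. Gja1 and Glul had Pearson's r of 0.76 on log2(TPM + 1), Gjb2 and Glul 0.66, Gjb2 and Gja1 0.64, Slc1a3 and Aqp4 0.62, and Gjb2 and Gjb6 0.61. Gja1 and Slc1a3 had an r of 0.01 and Gja1 and Gjb6 0.15. These are descriptions over libraries that share groups, dates and cell composition.

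**Figure D4:**
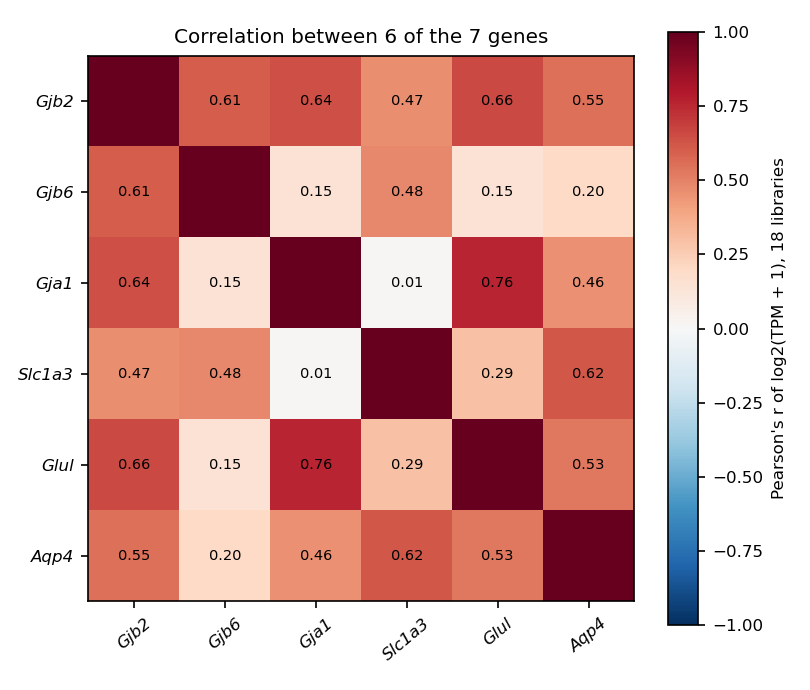
Pearson's r of log2(TPM + 1) over 18 libraries between each pair of 6 genes (rows and columns; red, positive; blue, negative), with the value in each cell. The highest value is 0.76 for Gja1 and Glul and the lowest 0.01 for Gja1 and Slc1a3.

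The genes whose pattern was most like each member, by r over the 18 libraries among 9535 genes, were Dse, Zfp422 and Cybrd1 for Gjb2 (0.95, 0.92 and 0.92) and Clip3, Ccdc97 and Pcmtd2 for Gjb6 (0.89, 0.85 and 0.83). For Gja1 they were Tagln2, Ccdc80 and Tcf7 (0.94, 0.92 and 0.92), for Slc1a3 Fam198a, Cpz and Slc27a1 (0.86, 0.84 and 0.84), and for Glul Bspry, Prps2 and Trpm3 (0.92, 0.92 and 0.91). For Fabp7 they were Necab2, Lmo3 and Rgs6 (each 0.98), a likeness set by the split between native cells and cultures, and for Aqp4 Slc2a10, Zfp286 and Hacl1 (0.89, 0.86 and 0.84).

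The counts of the 4 pathway lists below are to be read beside the shares of all tested genes given above for each comparison. In sorted LCP D10 against D0 these were 13.3% as higher and 10.7% as lower. Of the other connexins and pannexins 9 of 20 listed genes passed the filter. In sorted LCP D10 against D0, 2 were higher (Gjd2 and Panx2) and 3 lower, among them Gjb1 and Gjc1, and the median log2 difference was 0.51, against 0.02 over all tested genes. Gjc1 fell most, at 3.92 and 1.32 TPM in sorted LCP D10, against 43.9 and 38.3 TPM in sorted LCP D0 (log2 difference -3.64, limma adjusted p = 0.00976). Gjb1, connexin 32 of myelinating Schwann cells and liver, was listed at 0 in both sorted D10 libraries, against 4.14 and 4.48 TPM in sorted LCP D0 (limma adjusted p = 0.00375). Gjc3, connexin 29 of glia in mice, was at 0.107 and 0.285 TPM in the Lgr5 sort, against 3.87 and 7.05 TPM in the Sox2 sort (log2 difference -2.39, limma adjusted p = 0.000744). Panx1, the most abundant of the list, was at 114 and 52.2 TPM in sorted LCP D10, against 31.3 and 39.4 TPM in sorted LCP D0, and did not pass in any of the 11 comparisons. Besides Gjc3, the only call outside the sorted D10 to D0 comparison was 1 gene higher in sorted LCP D10 than in the Atoh1 sort (Panx2).

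Of the glutamate transport and glutamine cycle genes 14 of 17 passed the filter. In sorted LCP D10 against D0, 2 were higher, among them Slc17a8, and 0 lower, with a median of 0.19. Slc17a8 encodes the vesicular glutamate transporter of inner hair cells, is also among the 13 hair cell markers above, and was at 23.7 and 14.8 TPM in sorted LCP D10, against 0.0797 and 0.0313 TPM in sorted LCP D0 (log2 difference 4.23, limma adjusted p = 0.000189). Slc1a5, a glutamine transporter, was at 89.5 and 53.4 TPM in sorted LCP D10, against 21.3 and 12.6 TPM in the Atoh1 sort (log2 difference 2.01, limma adjusted p = 0.0286). In that comparison 2 of 14 were higher (Slc1a5 and Slc17a8) and 2 lower (Slc1a6 and Slc17a6). Unsorted cultures had 0 higher and 2 lower at D4 against D0 (Gls2 and Slc17a7), and 1 higher (Slc17a8) and 2 lower (Slc38a3 and Slc17a7) at D10 against D0. Slc17a7, another vesicular transporter, was at 0.00568 and 0 TPM in the Lgr5 sort, against 2.63 and 4.10 TPM in the Sox2 sort (limma adjusted p = 0.00324), and Slc17a6 was also lower there.

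Potassium buffering and water genes, which work with gap junctions to clear potassium, had 16 of 22 listed genes past the filter. In sorted LCP D10 against D0, 3 were higher (Atp1b1, Aqp11 and Dtna) and 1 lower (Dmd). Atp1b1, a sodium pump subunit and the most abundant of the list, was at 400.2 and 315 TPM, against 130.1 and 56.5 TPM (log2 difference 2.04, limma adjusted p = 0.0055). Dmd and Dtna encode dystrophin and dystrobrevin, of the complex that anchors Aqp4 in astrocytes. Dmd was at 2.81 and 3.36 TPM in sorted LCP D10, against 22.1 and 11.9 TPM in sorted LCP D0 (log2 difference -2.08, limma adjusted p = 0.00465). Dtna was at 45.0 and 70.6 TPM in LCP D4, against 14.4 and 11.4 TPM in LCP D0 (log2 difference 2.05, limma adjusted p = 0.00637). Aqp11 was at 11.1 and 5.41 TPM in sorted LCP D0, against 106 and 82.8 TPM in the Lgr5 sort (log2 difference -3.42, limma adjusted p = 0.000726), and 4 of the 16 were lower in that comparison (among them Atp1b1, Aqp11 and Dtna). Against the Atoh1 sort, sorted LCP D10 had 3 lower (among them Slc12a2 and Aqp1) and 0 higher. Dtna was also higher at D10 than at D0 in unsorted cultures, and Dmd was lower in sorted than in unsorted LCP D10.

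Of the fatty acid and retinoid binding protein genes 8 of 13 passed the filter. In sorted LCP D10 against D0, 3 were lower, among them Fabp3 and Crabp2, and 0 higher. Crabp2, which carries retinoic acid, was at 0.572 and 1.09 TPM in sorted LCP D10, against 45.1 and 80.3 TPM in sorted LCP D0 (log2 difference -5.08, limma adjusted p = 0.0257). Fabp3, a paralog of Fabp7, was at 0.646 and 0.370 TPM, against 14.2 and 5.16 TPM (log2 difference -2.69, limma adjusted p = 0.018). Against the Atoh1 sort, sorted LCP D10 had 1 higher and 2 lower (Fabp1 and Fabp12).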

How the data were processed

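RNA from 18 mouse cochlear libraries was, per the labels' protocols, amplified with a SMARTer V4 kit, built into ThruPLEX libraries and sequenced as single-end reads. The kits do not mark strand, so overlapping antisense genes cannot be told apart. The authors deposited 1 TPM value per gene and library. STAR, Salmon, FastQC, DESeq2 and mm10 are named per the submitters' processing notes, with no roles, and no label used here names the annotation. Groups and replicate numbers came from the titles.

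After a filter that kept the 20463 genes reaching 1 TPM in 2 or more libraries, log2(TPM + 1) values were tested in 1 limma 3.58.1 fit (R 4.3.3, trend, a mean per group, 9 residual and 2.8 prior degrees of freedom), with Benjamini-Hochberg adjustment per comparison and a threshold of 0.05. There were 11 comparisons. All groups share 1 estimate of the spread. An exact permutation of 2 against 2 libraries cannot go below 0.333. The alternatives were a pseudocount of 0.1, no filter, a filter of 5 TPM, quantile and upper quartile scaling, the replicate block, sequencing date as a term, the compared libraries alone, each library left out, and, chosen after seeing the data, unsorted for sorted cultures. Files hold 47729 identifiers, of which 47224 matched a name. Depth is unknown.

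Replicate numbers pair libraries by labelled sequencing date, except that first libraries have 2 dates, which split LCP D10 from LCP D0 and sorted from unsorted LCP D0. Deviations of same-numbered libraries correlated at -0.0187 to 0.483 (median 0.103) over 36 group pairs, and at 0.211 to 0.483 over the 6 pairs of unsorted LCP groups. Named genes were all 7 members, for each of 4 pathway lists its most abundant gene and up to 3 called genes of largest difference, and the 3 most similar genes per member. The single markers given with values and the counted genes of lists were named after their values were seen. A few genes covered by this rule are not reported here. The members and lists were chosen with earlier results of these data known.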

Additional observations from a re-analysis of the deposited data

How the results depend on the processing

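The number of the 7 genes past the threshold changed as follows. With the replicate block it was 1 for LCP D4 against D0, 1 for LCP D10 against D0 (Gja1 in each) and 1 for sorted against unsorted LCP D10 (Gjb2), and the block changed no other member's call. With sequencing date as a term each of these counts was 2. A pseudocount of 0.1 gave 1 for LCP D10 against D0. In fits of the compared libraries alone the count was 1 for sorted LCP D10 against D0, 0 for sorted LCP D0 against the Lgr5 sort and 1 for sorted LCP D10 against the Atoh1 sort. With unsorted in place of sorted cultures, chosen after seeing the data, it was 2 against the Lgr5 sort and 1 against the Atoh1 sort. Leaving out 1 library gave 0 to 1 for LCP D10 against D0 (Gja1 without the first LCP D10 library, Aqp4 without the second), 0 to 3 for the same days in sorted cultures, 0 to 1 for sorted against unsorted LCP D10 (Gja1 without the second unsorted library), 1 to 2 for sorted LCP D0 against the Lgr5 sort and 1 for sorted LCP D10 against the Atoh1 sort. Gjb6 changed sign without the second sorted LCP D0 library, and over the fits without 1 library its difference ran from -2.16 to 3.46 for sorted LCP D10 against D0 and from -5.32 to 0.29 for sorted LCP D0 against the Lgr5 sort. Unless stated above, the cause was not tested. Fabp7 kept its call against the Atoh1 sort in all 12 alternative settings, and against the Lgr5 sort in 11 of 12.

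Counts over all genes moved too. The lowest and highest over the alternatives were 10 and 352 (168 in the reported fit) for the Atoh1 sort against the other native sorts, 0 and 285 (114) for the Lgr5 against the Sox2 sort, 0 and 22 (10), 0 and 1148 (693) and 0 and 2009 (1512) for LCP D2, D4 and D10 against D0, 2032 and 6252 (4911) for sorted cultures at D10 against D0, 0 and 238 (16) and 0 and 2674 (1273) for sorted against unsorted cultures at D0 and D10, 0 and 2932 (2242) and 941 and 3679 (2424) for the sorted cultures against the Lgr5 and Atoh1 sorts, and 0 and 352 (42) for the interaction. With upper quartile scaling the median difference of all genes was 0, against -0.12 in the reported fit, for sorted against unsorted LCP D0. TPM keep no depth, which limits how firmly values below 1 TPM, as in Gja1, Fabp7 and Aqp4, can be read, and 7 libraries have a labelled extraction date after their sequencing date, so the dates cannot all be right.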
